A study of Homo sapiens with 8 samples.

Results

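NRF2, encoded by NFE2L2, and 8 of its target genes were followed in HepG2 cells, an established human hepatic cell line, after inhibition of the polycomb enzymes EZH1 and EZH2. The 9 genes were GCLC, GCLM, SLC7A11, TXNRD1, SRXN1, NQO1, HMOX1, AKR1C1 and NFE2L2, taken by symbol from a table of 25603 genes. All 9 were in the table and all 9 passed the filter on low values. The set was chosen by the measured levels of GCLC, which were seen to be lower in treated cells, so the values of GCLC are a description and carry no test. The other 8 genes were included because they belong to the same pathway, and they were chosen with earlier results of these data known.

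RNA-seq was performed after 4 days on cells given vehicle, 0.2% DMSO, and on cells given 1 µM of UNC1999 together with 1 µM of valemetostat tosylate (EZHi). UNC1999 and valemetostat inhibit the enzymes that methylate lysine 27 of histone H3. Each group comprised 4 libraries, described by the study as independent biological replicates. Both groups were grown on gelatin in the same medium with serum, insulin and dexamethasone. The labels give this DMSO percentage, whereas one passage of the study's methods gives a lower one. Only HepG2, a single tumour line, was examined, and whether the treated cells also received DMSO is not stated in the sources used here.

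NRF2 is a transcription factor that is kept at a low level by KEAP1, an adaptor that directs it to a ubiquitin ligase built on CUL3 and RBX1. When KEAP1 is modified by electrophiles or oxidants, NRF2 accumulates, pairs with a small MAF protein and binds antioxidant response elements near its targets. Its targets serve glutathione synthesis, the thioredoxin system, NADPH supply, heme breakdown and the reduction of quinones and carbonyls. In hepatocytes this programme is known for handling drugs and other reactive compounds.

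The response element has a core of TGACNNNGC, where N is any base. This core was searched on both strands of RefSeq promoter windows (GRCh38.p14) that run from 250 bases before to 50 bases after each start site. It was present in 13.3% of 35116 windows, which belonged to 27305 genes, 16.1% of which had it in at least one window. Windows were available for 7 of the 9 genes, and 2 of these 7, GCLM and TXNRD1, contained the core. The match in GCLM began 34 bases before the start site on the strand opposite to the gene. TXNRD1 has several start sites, and one window held matches that began 99 and 8 bases before the start, while another held a match that began 102 bases before it. The stretches of 151 bases that end at the start site are shown for these windows and for GCLC, which encodes the partner subunit of GCLM, with the cores in capitals. They lie at chr6:53545101-53545251 (minus strand), chr1:93909430-93909580 (minus strand), chr12:104215629-104215779 (plus strand) and chr12:104286882-104287032 (plus strand), in the order shown.
GCLC: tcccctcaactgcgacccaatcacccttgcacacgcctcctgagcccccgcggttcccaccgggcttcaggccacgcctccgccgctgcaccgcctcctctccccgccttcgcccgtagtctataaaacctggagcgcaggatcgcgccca
GCLM: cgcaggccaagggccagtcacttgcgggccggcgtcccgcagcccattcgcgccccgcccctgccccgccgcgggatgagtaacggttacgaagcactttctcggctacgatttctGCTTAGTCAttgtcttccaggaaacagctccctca
TXNRD1 (first window): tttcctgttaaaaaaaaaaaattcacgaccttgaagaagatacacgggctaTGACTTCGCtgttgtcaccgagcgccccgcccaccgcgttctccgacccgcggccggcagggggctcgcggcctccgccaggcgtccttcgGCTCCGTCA
TXNRD1 (second window): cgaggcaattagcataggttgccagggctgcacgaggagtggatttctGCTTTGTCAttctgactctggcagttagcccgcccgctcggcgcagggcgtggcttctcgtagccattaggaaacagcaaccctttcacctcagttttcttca
No binding data were analysed here, so these matches describe the letters of the windows only.

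Values are on a log2 scale after correction for transcript length, and levels are also given as an estimated FPKM. The hepatocyte markers ALB, APOA1, APOB, TTR, SERPINA1, TF, HNF4A and AFP were all expressed, from 205 (TTR) to 16200 (AFP) estimated FPKM. Of the markers of other cell types, KRT7 stood at 0.751, PECAM1 at 1.63, COL1A1 at 2.80 and COL3A1 at 0.0518, while KRT19, EPCAM and SOX9 ranged from 84.4 to 414. VWF, at 1.25 estimated FPKM over the 8 libraries, rose from 4.03 ± 0.17 to 5.48 ± 0.61 (log2, SD, n = 4, limma adjusted p 0.00537), and no other marker was called without the block. With the replicate number as a block, ALB (adjusted p 0.0314) was called lower, and APOA1 (0.00812), APOB (0.00155) and the biliary marker SOX9 (0.0156) were called higher, in the same fit that calls most of the NRF2 genes below. That fit called 15.1% of all genes lower and 14.9% higher. With libraries also centred on genes with at least 10 estimated FPKM, ALB was not called (0.0768). APOA1, APOB, TTR, SERPINA1, TF, KRT19, SOX9 and VWF were then called higher, against 22.6% of all genes and 16.1% of those with at least 10 estimated FPKM. PTPRC and CD68 were not analysed here. The part of these levels in the results below was not tested. In RNA from whole cultures, fewer cells that express a gene and less RNA per cell cannot be told apart.

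Levels per length differed widely across the 9 genes. NQO1, a quinone reductase, was the highest at 493 estimated FPKM (mean of 8 libraries), followed by TXNRD1 at 151 and AKR1C1 at 110. NFE2L2 itself stood at 72.0, GCLC at 66.2, HMOX1 at 56.3 and GCLM at 18.7. SLC7A11 at 3.91 and SRXN1 at 0.714 were the lowest. In vehicle cells, the ranges of TXNRD1 and AKR1C1 overlapped, as did those of NFE2L2 and GCLC, so that these neighbours were not separated by the spread of the libraries.

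Under EZHi, 6 of the 8 genes other than GCLC were lower in 4 of 4 replicate pairs, HMOX1 was higher in 4 of 4 pairs, and SRXN1 was lower in 3 of 4 pairs. The share of all genes with such agreement among pairs was not determined. A negative log2 fold change was common, found for 10481 of 20153 genes and for 5695 of the 7809 with at least 10 estimated FPKM. In the limma fit with group as the only term, 0 of these 8 genes were called (adjusted p under 0.05), against 4.27% of 20153 genes called lower and 8.85% called higher. Before adjustment, 5 of them had a p under 0.05, of which 4 were lower and 1 was higher. The same held, in either direction, for 5367 of all 20153 genes and for 2333 of the 7809 with at least 10 estimated FPKM. Libraries of equal replicate number deviated together in both groups, and with the replicate number as a block limma called 6 of 8 lower (GCLM, SLC7A11, TXNRD1, NQO1, AKR1C1 and NFE2L2) and 1 higher (HMOX1). The blocked fit called 15.1% of all genes lower and 14.9% higher. Expressed genes in general shifted down as deposited. Among 7809 genes with at least 10 estimated FPKM, a class that holds 7 of the 9 genes, the blocked fit called 32.5% lower and 8.20% higher, and the median log2 fold change was -0.095. When libraries were centred on the genes of this class, the blocked fit (an alternative chosen after seeing the data) called 4 of 8 lower (SLC7A11, NQO1, AKR1C1 and NFE2L2) and HMOX1 higher, against 6.79% and 22.6% of all genes and 14.6% and 16.1% of the class. With the block and quantile normalization, also chosen after seeing the data, limma called GCLM, SLC7A11, NQO1 and AKR1C1 lower and HMOX1 higher, against 14.0% and 13.7% of all genes and 16.5% and 14.4% of the class. Without the block, centring left HMOX1 as the single call, against 12.7% of all genes and 5.26% of the class called higher. Quantile normalization without the block called SLC7A11 lower and HMOX1 higher, against 3.89% and 6.93% of all genes and 3.38% and 4.16% of the class. The plot of values by library shows the 9 genes pair by pair.

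**Figure D1:**
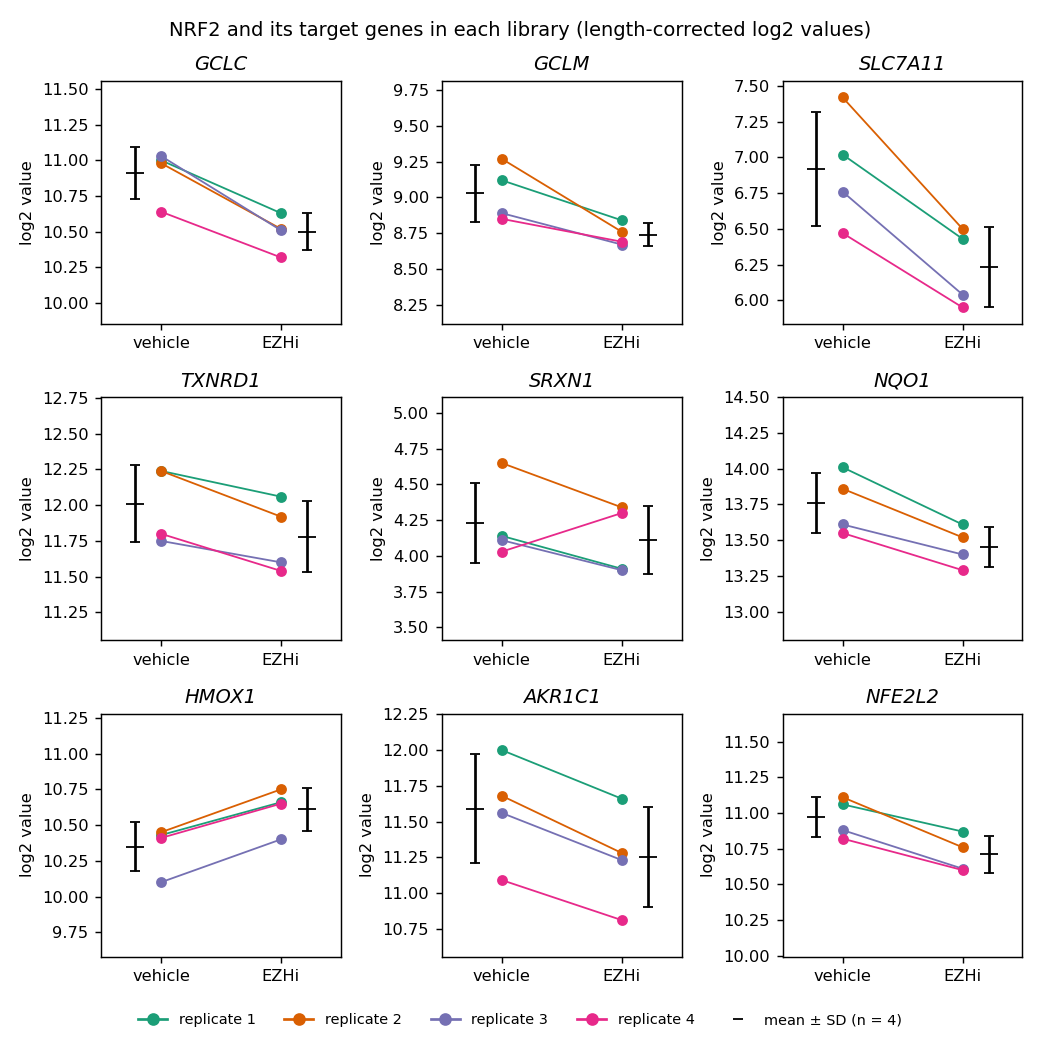
Length-corrected log2 value (vertical axis, spanning 1.7 log2 units in each panel) of each gene in vehicle and EZHi libraries, with lines joining libraries of equal replicate number and black bars for the mean ± SD (n = 4). The lines of GCLC, GCLM, SLC7A11, TXNRD1, NQO1, AKR1C1 and NFE2L2 all slope down, those of HMOX1 all slope up, and SRXN1 is mixed, while the starting points of the lines are spread widely for SLC7A11 and AKR1C1.

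Glutathione synthesis was examined first. GCLC (ENSG00000001084, hg38 chromosome 6, 53497341 to 53616970, minus strand) encodes the catalytic subunit of glutamate-cysteine ligase, the rate-limiting enzyme of this pathway. Its log2 values in vehicle replicates 1 to 4 were 11.00, 10.98, 11.03 and 10.64, and those in EZHi replicates 1 to 4 were 10.63, 10.52, 10.51 and 10.32. The groups did not overlap, although the lowest vehicle library and the highest EZHi library were almost equal. Of all genes 7.93%, and of those with at least 10 estimated FPKM 16.1%, were separated in this direction. The difference of means was -0.42, or -25.1% on the linear scale, and ranged from -0.32 to -0.51 among the pairs. It became -0.32 with centring and -0.30 with quantile normalization. Genes of the same level, a bin of 1008 genes, had a median difference of -0.12 and a 10th percentile of -0.32. Because GCLC was chosen for its fall, its place beside other genes is a description and no evidence of an unusual fall.

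GCLM (ENSG00000023909, chromosome 1, 93885199 to 93909456, minus strand) encodes the modifier subunit of the same enzyme. Its values were 9.12, 9.27, 8.89 and 8.85 in vehicle replicates 1 to 4, and 8.84, 8.76, 8.67 and 8.69 in EZHi replicates 1 to 4. All EZHi libraries were below all vehicle libraries, by a narrow margin, a separation found in the lower direction for 7.93% of all genes and 16.1% of those with at least 10 estimated FPKM. The mean difference was -0.29 (SE 0.10, limma adjusted p 0.0907). The call depended on the pairing and the scaling, with an adjusted p of 0.00968 with the block, 0.0526 with the block and centring, and 0.026 with the block and quantile normalization. Pair 2 showed the widest gap, at -0.52, and pair 4 the narrowest, at -0.16.

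SLC7A11 (ENSG00000151012, chromosome 4, 138164097 to 138242349, minus strand) encodes the light chain of the transporter that imports cystine, the precursor of the cysteine in glutathione. It had the largest difference of the 9 genes. The vehicle values were 7.02, 7.42, 6.76 and 6.47 in replicates 1 to 4, and the EZHi values were 6.43, 6.50, 6.04 and 5.95. The groups overlapped, because vehicle replicate 4 lay between EZHi replicates 1 and 2, yet each EZHi library was below the vehicle library of its own number, by 0.52 to 0.91. The mean difference was -0.69 (SE 0.21, limma adjusted p 0.0565), equal to -37.9%, and did not pass the threshold without the block. The adjusted p was 0.000597 with the block, 0.037 with quantile normalization alone, where the log2 fold change was -0.80, and 0.0304 without vehicle replicate 4, where it was -0.84. With the block, the call was retained under centring (adjusted p 0.000982) and quantile normalization (0.00014).

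SLC3A2, the heavy chain that pairs with SLC7A11 in the transporter, was called lower, at -0.29 (limma adjusted p 0.0151), with 11.30, 11.31, 11.28 and 11.40 in vehicle replicates 1 to 4 and 10.96, 11.17, 11.00 and 11.01 in EZHi replicates 1 to 4. Its groups did not overlap, a separation found in the lower direction for 7.93% of all genes and 16.1% of those with at least 10 estimated FPKM. The adjusted p was 0.0627 with centring, 0.0123 with centring and the block, and at most 0.054 when single libraries were left out (without vehicle replicate 4, and 0.0504 without EZHi replicate 4). SLC7A11 is also known as a target of ATF4, the factor of the amino acid response. Of ATF4 and 7 of its targets, TRIB3 (-0.56, limma adjusted p 0.00215) and DDIT3 (-0.39, 0.025) were called lower and 0 were called higher, against 4.27% and 8.85% of all genes. ATF4 differed by -0.17 (0.186) and ASNS by -0.22 (0.43). With the block 4 of the 8 were called lower, ATF4 (0.0229) and PSAT1 (0.0299) in addition. The shares called lower by that fit were 15.1% of all genes and 32.5% of those with at least 10 estimated FPKM. With the block and centring ATF4 (0.227) and PSAT1 (0.424) were not called. PHGDH was called higher by that fit (0.0272), against 22.6% of all genes. It was also called higher with the block and quantile normalization (0.0129), against 13.7%. In 4 of the 8 fits on 7 libraries DDIT3 was not called, with an adjusted p of 0.0723 when EZHi replicate 4 was absent, 0.061 for EZHi replicate 1, 0.0585 for EZHi replicate 3 and 0.0583 for vehicle replicate 4. DDIT3 was not called with centring (0.0732) either.

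The thioredoxin branch showed smaller differences. TXNRD1 (ENSG00000198431, chromosome 12, 104215779 to 104350307, plus strand) encodes the cytosolic thioredoxin reductase, which uses NADPH to regenerate thioredoxin. It measured 12.24, 12.24, 11.75 and 11.80 in vehicle replicates 1 to 4, and 12.06, 11.92, 11.60 and 11.54 in EZHi replicates 1 to 4. The groups overlapped, with both replicates 1 and 2 above both replicates 3 and 4 in each group. The mean difference was -0.23 (SE 0.15, limma adjusted p 0.401), and the adjusted p was 0.00588 with the block but 0.0633 with the block and centring and 0.122 with the block and quantile normalization. Without the block, the difference was -0.14 when EZHi replicate 4 was left out, and -0.15 when vehicle replicate 1 or 2 was. The span of TXNRD1 also holds RPL18AP3, a pseudogene on the same strand listed at 97.3 estimated FPKM.

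SRXN1 (ENSG00000271303, chromosome 20, 646615 to 653200, minus strand) encodes sulfiredoxin, which repairs overoxidized peroxiredoxins. Its values were 4.14, 4.65, 4.11 and 4.03 in vehicle replicates 1 to 4, and 3.91, 4.34, 3.90 and 4.30 in EZHi replicates 1 to 4. The groups overlapped, and pair 4 went in the other direction (0.27) from pairs 1 to 3 (-0.22, -0.31 and -0.21). The log2 fold change of -0.12 (95% confidence interval -0.49 to 0.26, limma adjusted p 0.726) did not differ from 0 with the block either (0.539). It was 0.022 when vehicle replicate 2 was left out. With 0.714 estimated FPKM, SRXN1 was in a bin of 1008 genes whose log2 fold changes ran from -0.20 at the 10th to 0.94 at the 90th percentile.

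NQO1 (ENSG00000181019, chromosome 16, 69706996 to 69726668, minus strand), the quinone reductase that is widely used as a readout of NRF2, showed values of 14.01, 13.86, 13.61 and 13.55 in vehicle replicates 1 to 4 and of 13.61, 13.52, 13.40 and 13.29 in EZHi replicates 1 to 4. The ranking of the replicate numbers was the same in both groups, and the groups overlapped. On average NQO1 differed by -0.30 (SE 0.11, limma adjusted p 0.12), or -19.0%. With the block the adjusted p was 0.00186, and it was 0.00863 with the block and centring and 0.00484 with the block and quantile normalization.

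AKR1C1 (ENSG00000187134, chromosome 10, 4963253 to 4983283, plus strand), a reductase of ketosteroids and of reactive carbonyls, varied most among replicate numbers. It stood at 12.00, 11.68, 11.56 and 11.09 in vehicle replicates 1 to 4, and at 11.66, 11.28, 11.23 and 10.81 in EZHi replicates 1 to 4. The means of the 4 pairs spanned 0.88 on the log2 scale, whereas the difference within pairs was narrow, from -0.29 to -0.39. The mean difference of -0.34 had an SE of 0.21 without the block (limma adjusted p 0.348) and of 0.04 with it (adjusted p 0.000416). The adjusted p was 0.00194 with the block and centring and 0.00548 with the block and quantile normalization. AKR1C1 and its neighbours AKR1C2 and AKR1C3 are close copies, so reads could be shared or lost among them.

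HMOX1 (ENSG00000100292, chromosome 22, 35380361 to 35394214, plus strand) encodes heme oxygenase 1, which breaks down heme, and its promoter is also known to be held in check by the repressor BACH1. It was the gene with the opposite direction. The vehicle libraries gave 10.43, 10.45, 10.10 and 10.41 in replicates 1 to 4, and the EZHi libraries 10.66, 10.75, 10.40 and 10.65. Replicate 3 was the lowest in both groups, and apart from this replicate in the EZHi group all EZHi libraries were above all vehicle libraries. The mean difference was 0.27 (SE 0.10, limma adjusted p 0.126), or 20.2%. It passed the threshold with the block (0.00179), and also without the block once libraries were centred (0.36, adjusted p 0.0352) or quantile normalized (0.37, adjusted p 0.042). Among 1007 genes of the same level, the 90th percentile of the log2 fold change was 0.09.

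NFE2L2 (ENSG00000116044, chromosome 2, 177218667 to 177392756, minus strand) encodes NRF2 itself, whose activity is mainly set by protein stability, which RNA-seq does not measure. Its transcript measured 11.06, 11.11, 10.88 and 10.82 in vehicle replicates 1 to 4, and 10.87, 10.76, 10.61 and 10.60 in EZHi replicates 1 to 4. Only EZHi replicate 1 reached into the range of the vehicle libraries. EZHi libraries differed by -0.26 on average (SE 0.09, limma adjusted p 0.0935). The adjusted p was 0.00278 with the block, 0.0265 with the block and centring and 0.0624 with the block and quantile normalization, where the log2 fold change was -0.14. The annotated span of NFE2L2 overlaps AGPS (41.7 estimated FPKM) and HNRNPA3 (85.8) on the opposite strand, and counting did not use strand.

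The 8 genes other than GCLC were then set against genes of equal level. SLC7A11 lay below the 10th percentile of its level (-0.26), as did AKR1C1 (-0.32), HMOX1 lay above the 90th percentile, and GCLM, NFE2L2, NQO1, TXNRD1 and SRXN1 lay between these limits. The margin of AKR1C1 was small, at -0.34, and its log2 fold change was -0.19 without EZHi replicate 4 and -0.20 without vehicle replicate 1. The plot of change against level shows that the median of all genes was above 0 for weakly expressed genes and below 0 for strongly expressed ones.

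**Figure D2:**
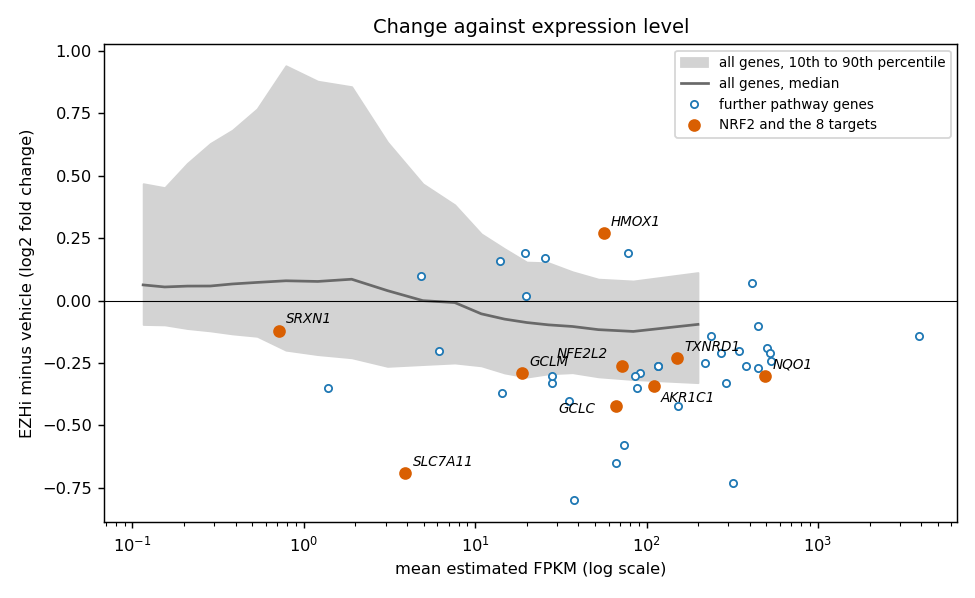
Log2 fold change of EZHi against vehicle as deposited (vertical axis) by mean estimated FPKM (horizontal axis, log scale), with NRF2 and its 8 targets as filled points, further pathway genes as open points, and the median and 10th to 90th percentile of all 20153 genes in 20 bins of level as a line and a band. SLC7A11 at -0.69 lies below the band and HMOX1 at 0.27 above it, while TXNRD1 at -0.23 lies inside it.

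Replicate numbers differed in level as well. The means of the pairs spanned 0.75 for SLC7A11, 0.49 for SRXN1, 0.48 for TXNRD1, 0.38 for NQO1, 0.35 for HMOX1, 0.33 for GCLC and 0.25 for both GCLM and NFE2L2. For SLC7A11, SRXN1, TXNRD1, NQO1, HMOX1 and AKR1C1 this span was wider than the mean difference between EZHi and vehicle. Replicate 4 was the lowest vehicle library for 7 of the 9 genes and the lowest EZHi library for 6 of them. What the numbers stand for is not given in the sources used here. The SD of the differences within pairs was 0.04 for AKR1C1 and HMOX1, 0.07 for NFE2L2, 0.08 for NQO1 and TXNRD1, 0.16 for GCLM, 0.17 for SLC7A11 and 0.26 for SRXN1.

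**Figure D3:**
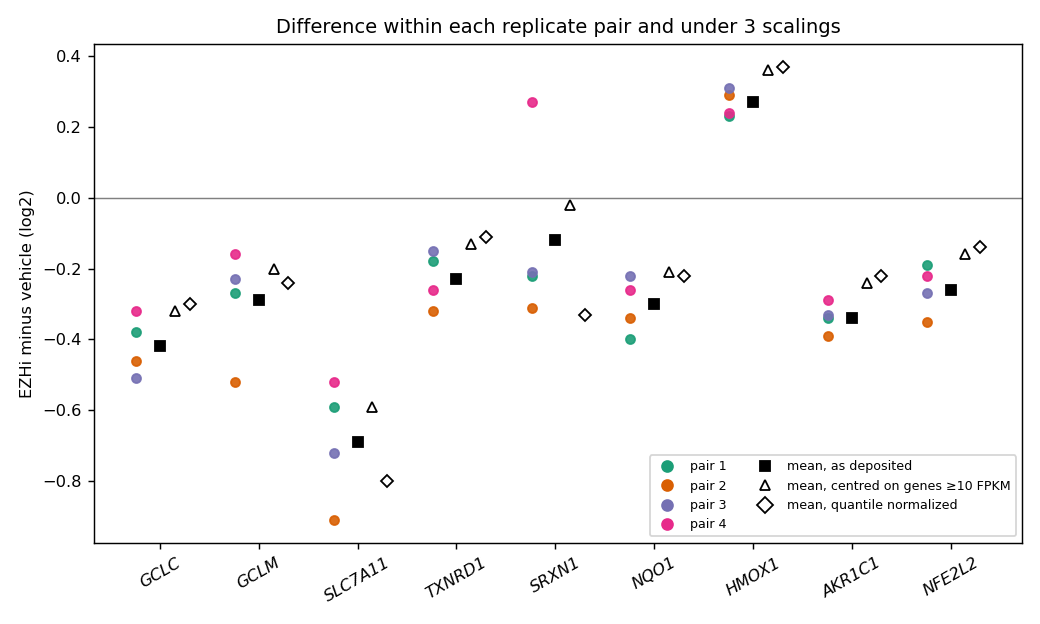
EZHi minus vehicle on the log2 scale (vertical axis) for each gene (horizontal axis), with coloured points for the 4 replicate pairs and black or open symbols for the mean as deposited, centred on genes with at least 10 estimated FPKM, and quantile normalized. The pair differences of AKR1C1 lie between -0.39 and -0.29 and those of HMOX1 between 0.23 and 0.31, and the mean of SRXN1 moves from -0.12 to -0.02 with centring and to -0.33 with quantile normalization.

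Further genes that are widely described as NRF2 targets were monitored next, from a list of 38 by role, 36 of which were tested (ME1 and CBR3 were not analysed here). In the fit with group as the only term, 9 of 36 were called lower and 0 higher, against 4.27% and 8.85% of all genes and 9.16% and 2.73% of genes with at least 10 estimated FPKM, a class that holds 33 of the 36. The median log2 fold change of the list was -0.25, beside -0.008 for all genes tested and -0.095 for that class. With libraries centred on the class, 4 of 36 were called lower (GLRX, MGST1, UGDH and ABCC3) and the median was -0.16, beside 1.58% of all genes and 3.32% of the class called lower. With the replicate block, 24 of 36 were called lower and 2 higher (CBR1 and EPHX1), against 15.1% and 14.9% of all genes and 32.5% and 8.20% of the class. With the block and centring 18 and 4 were, against 6.79% and 22.6% of all genes and 14.6% and 16.1% of the class. Quantile normalization without the block called 5 of 36 lower (GLRX, TKT, UGDH, ABCC3 and ABCB6) and 0 higher. This compares with 3.89% and 6.93% of all genes and 3.38% and 4.16% of the class. ABCB6 (limma adjusted p 0.0133) was not called as deposited (0.0976). GSS (0.0913), SLC3A2 (0.0905), BLVRA (0.0697), MGST1 (0.0539) and PRDX6 (0.151) were not called by this fit. EZHi was lower in 4 of 4 pairs for 26 of the 36 genes and higher in 4 of 4 pairs for 2. The share of all genes with such agreement was not determined, and 5695 of the 7809 genes with at least 10 estimated FPKM had a negative log2 fold change.

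In glutathione metabolism, 4 of 8 genes were called lower, against 4.27% of all genes and 9.16% of those with at least 10 estimated FPKM. Centring left 2 of 8 (GLRX and MGST1), against 1.58% of all genes and 3.32% of that class. Quantile normalization left 1 of 8 (GLRX), against 3.89% and 3.38%. GLRX, which reduces protein-glutathione disulfides, had the largest fall of this group, with a mean of 11.01 ± 0.09 in vehicle and 10.36 ± 0.22 in EZHi (SD, n = 4), a difference of -0.65 (limma adjusted p 0.003). MGST1, a membrane-bound glutathione transferase, fell by 0.42 (adjusted p 0.0133). GSS, the enzyme that completes glutathione synthesis, fell by 0.35 (0.024), but it was not called with centring (0.0675) or in 5 of the 8 fits on 7 libraries. There the adjusted p of GSS was 0.0719, 0.0616 and 0.0618 in the absence of vehicle replicate 1, 2 and 4, and 0.0541 and 0.0662 in the absence of EZHi replicate 3 and 4. SLC3A2 is given above. The most abundant gene of the group, the peroxidase GPX2, differed by 0.07 (SE 0.27, adjusted p 0.907), and its vehicle values of 13.64, 13.72, 12.46 and 13.30 differed more among libraries than between groups.

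Of the thioredoxin system, the peroxiredoxin PRDX6 fell by 0.21 (limma adjusted p 0.0484), a call that was lost in all 8 fits that left out one library, where the adjusted p ranged from 0.0668 to 0.125, and with centring (0.283). PRDX1, the most abundant gene of the group, differed by -0.10 (0.568). Of the 5 enzymes tested that supply NADPH, TKT, the transketolase of the pentose phosphate pathway, fell by 0.33 (0.0166), with an adjusted p of 0.0501 without vehicle replicate 1 and of 0.0694 with centring. PGD, a dehydrogenase of this pathway and the most abundant of the 5, differed by -0.24 (0.115, and 0.00411 with the block).

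Among the 6 genes of heme breakdown and iron storage, BLVRA, the biliverdin reductase that acts after heme oxygenase, fell by 0.30 (limma adjusted p 0.0123, and 0.0555 with centring), with vehicle values of 11.21, 11.18, 11.23 and 11.33 and EZHi values of 10.92, 11.05, 10.93 and 10.87. It thus had the opposite direction to HMOX1. The ferritin light chain FTL, the most abundant gene of the list at 3870 estimated FPKM, differed by -0.14 (0.617), and the ferritin heavy chain FTH1 by -0.21 (0.35).

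UGDH, which makes the UDP-glucuronic acid used in glucuronidation, showed the strongest call of the list. Its mean was 13.32 ± 0.14 in vehicle and 12.59 ± 0.15 in EZHi (SD, n = 4), a difference of -0.73 (limma adjusted p 0.000756), and the call was made in all 8 fits that left out one library and with centring (0.00128). PTGR1, of the same group, had the largest difference of the list, at -0.80, with overlapping groups. It was not called without the block (SE 0.26, adjusted p 0.076) but was with it (5.82e-05). AKR1C3, the most abundant of its group, differed by -0.26 (0.174, and 0.00236 with the block), and AKR1C2, the close copy of AKR1C1, by -0.40 (SE 0.32, adjusted p 0.477, and 0.00897 with the block). Of the export pumps, ABCC3, which carries conjugates across the basolateral membrane, fell by 0.58 (0.0041), and this call too was made in all 8 of these fits and with centring (0.00957). ABCC2, its counterpart at the bile canaliculus and the most abundant gene of this group, differed by -0.27 (0.111, and 0.00332 with the block).

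**Figure D4:**
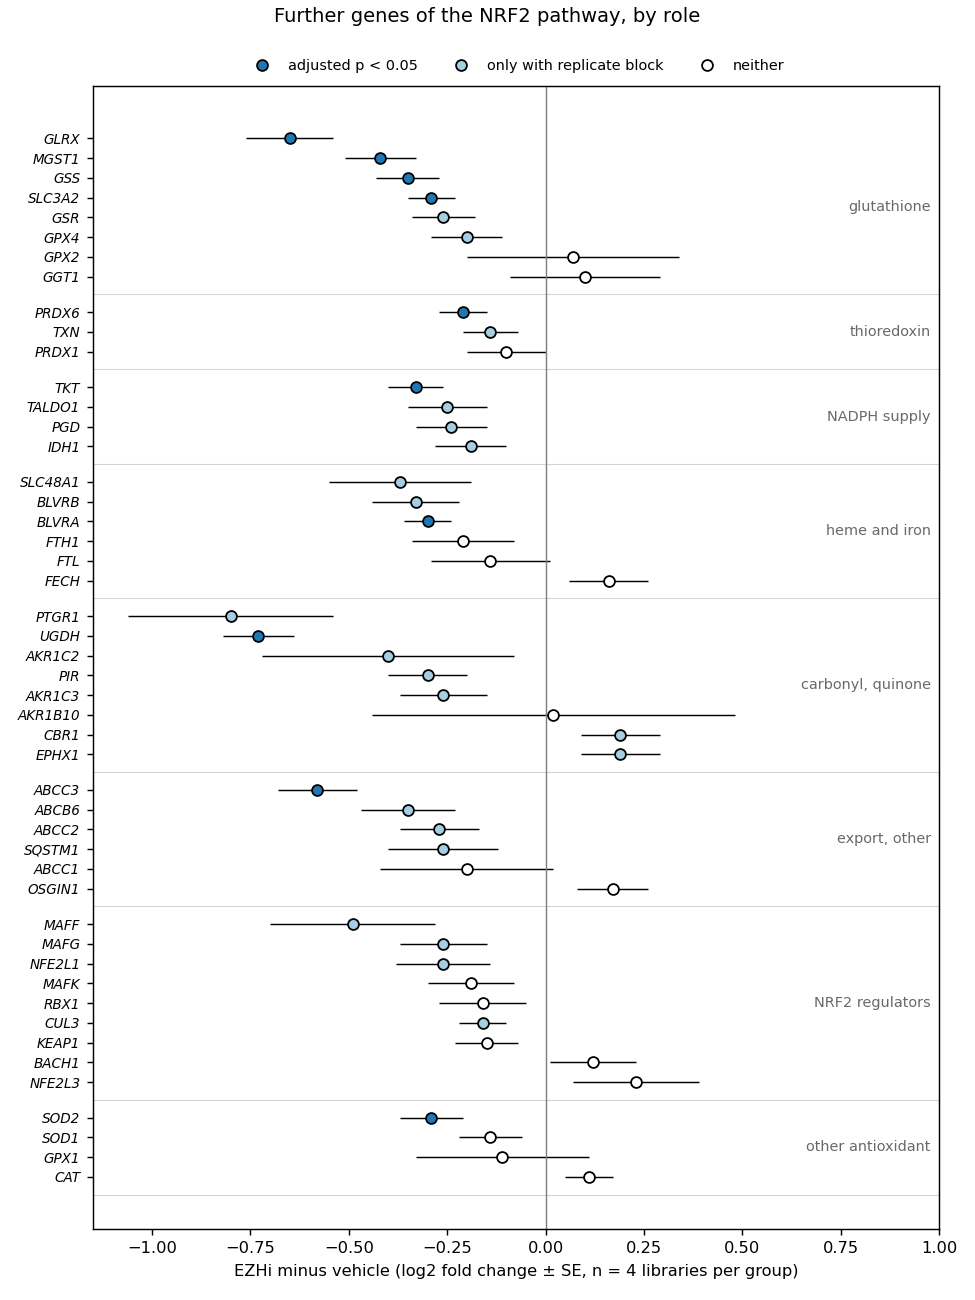
Log2 fold change of EZHi against vehicle (horizontal axis, ± SE, n = 4 libraries per group) for further NRF2 target genes by role, for regulators of NRF2 and for 4 other antioxidant enzymes (vertical axis), with dark points for a limma adjusted p under 0.05, light points for genes called with the replicate block alone and open points for the rest. GLRX at -0.65, UGDH at -0.73 and ABCC3 at -0.58 are the dark points furthest to the left, and no dark point lies to the right of 0. The light point of PTGR1, at -0.80, lies further to the left.

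The regulators of NRF2 were examined because its activity depends on them. Without the block, 0 of 9 were called by limma, and before adjustment 3 had a p under 0.05, all of them lower. Before adjustment, 5367 of all 20153 genes and 2333 of the 7809 with at least 10 estimated FPKM had such a p, in either direction. In the degradation machinery, KEAP1 differed by -0.15 (limma adjusted p 0.303), CUL3 by -0.16 (0.11) and RBX1 by -0.16 (0.4). The small MAF partners MAFF, MAFG and MAFK differed by -0.49 (0.175), -0.26 (0.17) and -0.19 (0.322), and the competitor BACH1 by 0.12 (0.538). The related factors NFE2L1 and NFE2L3 differed by -0.26 (0.208) and 0.23 (0.425). With the block, CUL3 (0.0291), MAFF (0.00319), MAFG (0.0191) and NFE2L1 (0.0129) were called lower. The blocked fit called 15.1% of all genes and 32.5% of those with at least 10 estimated FPKM lower. With the block and centring, MAFF (0.00571) was called lower while BACH1 (0.0172) and NFE2L3 (0.0219) were called higher. CUL3 (0.33), MAFG (0.0871) and NFE2L1 (0.0546) were not called. This fit called 6.79% of all genes lower and 22.6% higher, and 14.6% and 16.1% of those with at least 10 estimated FPKM. With the block and quantile normalization, MAFF (0.00187) and NFE2L1 (0.0235) were called lower and BACH1 (0.0238) higher, while NFE2L3 (0.0807) was not called. That fit called 14.0% of all genes lower and 13.7% higher. Of the regulators called with the block alone, MAFF was thus the one called with centring and also with quantile normalization. Without the block, MAFG was called lower when vehicle replicate 1 was left out, and NFE2L1 when vehicle replicate 2 was.

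Antioxidant enzymes that are not typical NRF2 targets were listed for comparison. Of 4, the mitochondrial superoxide dismutase SOD2 was called lower, by -0.29 (limma adjusted p 0.0451), and 0 were called higher, against 4.27% and 8.85% of all genes and 9.16% and 2.73% of genes with at least 10 estimated FPKM. SOD2 was not called with centring (0.174) or quantile normalization (0.211), nor in 6 of the 8 fits on 7 libraries, with an adjusted p of 0.094, 0.0795 and 0.0919 in the absence of vehicle replicate 1, 3 and 4 and of 0.0958, 0.105 and 0.112 in the absence of EZHi replicate 1, 2 and 4. It was called with the block (0.000906). SOD1, the most abundant of these enzymes, differed by -0.14 (0.29). CAT, another of the 4, went the other way, at 0.11 (0.284, and 0.1 with the block). It was called higher with quantile normalization (0.0358), with the block and centring (0.00598) and with the block and quantile normalization (0.0049). The difference between these enzymes and the NRF2 targets was not tested.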

How the data were processed

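The authors mapped reads to hg38 with HISAT2 (2.2.1 per the processing notes), assigned them to exons of genes with HTSeq (0.9.1), ignoring strand, removed genes with few reads and took the regularized log of DESeq2 (1.40.2), corrected for mean transcript length. The deposited values are therefore on a log2 scale (-6.81 to 19.01), although the table is named as FPKM, and differences of genes with few reads are shrunk. A doubling of transcript length moved the lowest values by -0.92, as a division by length would. Read depth is unknown, so no interval for counting error can be given. Values multiplied back by the GENCODE 44 transcript length summed to between 24.4 and 27.3 M reads per library, and their mean, 25.6 M, gave the estimated FPKM.

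Groups and replicate numbers came from the sample titles. The test was limma 3.58.1 in R 4.3.3 (lmFit, eBayes with a trended prior, group only, both directions) on 20153 genes whose estimated FPKM averaged 0.1 or more, with Benjamini-Hochberg adjustment across these genes, and an adjusted p under 0.05 is described as called. The fit was tested on simulated data with known changes. Libraries were paired by replicate number. Over 20153 genes the deviations from the group means correlated at 0.31, 0.558, 0.634 and 0.216 for numbers 1 to 4. Libraries of unequal number correlated at -0.582 to 0.199, the highest being vehicle replicate 1 with EZHi replicate 2. The pairing of number 4 was thus only slightly closer than this. Fits with the replicate block are given where they change the call of a gene that is named. The members and lists were chosen with earlier results of these data known. Genes named were the 9 members, all regulators, and, of the other lists, the called genes and the most abundant gene of each role (for ATF4 targets and cell type markers, called genes with ranges), and other genes were named after their values were seen. Alternatives were the replicate block, centring of each library on genes with at least 10 estimated FPKM, quantile normalization, other filters, pseudocounts of 0.5 and 1 estimated FPKM, a prior without trend and leaving out each library. The values of 1 listed gene are not reported here, although it is counted in its list. Gene positions came from GENCODE 44 and promoters from RefSeq. Plots were drawn with matplotlib 3.10.9.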

Additional observations from a re-analysis of the deposited data

Results flagged for a closer look

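Dixon's criterion at the 95% level, which sets the distance of an extreme library from its neighbour against the whole spread of its group of 4, was applied to each gene listed above other than cell type markers. It singled out 9 libraries in 132 groups, where about 1 in 20 groups, or 6.6, would be singled out by chance. Of the 9 genes, GCLC stood apart in vehicle replicate 4, at 10.64 against 10.98 to 11.03, and without this library its log2 difference was -0.51. For GCLC this is a description, since it was chosen for its fall. HMOX1 stood apart in vehicle replicate 3, at 10.10 against 10.41 to 10.45, and without it the log2 fold change was 0.18 (limma adjusted p 0.212). SRXN1 stood apart in vehicle replicate 2, at 4.65 against 4.03 to 4.14. The other values were those of IDH1 in EZHi replicate 3 (13.34), BLVRB in EZHi replicate 3 (9.50), FTH1 in vehicle replicate 4 (13.41), MAFK in EZHi replicate 1 (7.84), NFE2L3 in EZHi replicate 2 (8.24) and CHAC1 in vehicle replicate 4 (1.77). IDH1 and BLVRB were called lower with the block (limma adjusted p 0.0293 and 0.00352) but not without it (0.216 and 0.0898). The blocked fit called 32.5% of genes with at least 10 estimated FPKM lower.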

How the results depend on the processing

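Of the 8 genes other than GCLC, 0 were called lower and 0 higher as reported. With the replicate block 6 were lower and 1 was higher. With the block and centring 4 and 1 were, and with the block and quantile normalization (both chosen after seeing the data) also 4 and 1. Without the block, quantile normalization gave 1 lower (SLC7A11) and 1 higher (HMOX1), and centring gave 0 lower and 1 higher. Leaving out one library gave 0 to 1 lower (1 without vehicle replicate 4) and 0 higher. Of 36 further targets, 9 were called lower and 0 higher as reported, against 24 and 2 with the replicate block, 18 and 4 with the block and centring, 20 and 4 with the block and quantile normalization, 5 and 0 with quantile normalization, 4 and 0 with centring, and 6 to 9 and 0 when one library was left out (6 without vehicle replicate 1, vehicle replicate 4 or EZHi replicate 4). These 3 blocked fits called 32.5%, 14.6% and 16.5% of the genes with at least 10 estimated FPKM lower. Without the block, 9.16% of them were called lower as reported, 3.38% with quantile normalization and 3.32% with centring. The number of genes called over the whole table was 2644, and 6051 with the block, 5917 with the block and centring, 5593 with the block and quantile normalization, 1579 at a filter of at least 1 estimated FPKM, which leaves fewer genes to test, and 1811 to 2571 when one library was left out. The filters, the pseudocounts of 0.5 and 1 and the prior without trend changed no call of the 8 genes, but the higher filter removed SRXN1. SRXN1 ranged from -0.19 to 0.022 when one library was left out and changed sign without vehicle replicate 2 (0.022). Of the genes called over the whole table, 1784 were higher and 860 lower, against 2550 and 319 with centring, which moved the median of all genes from -0.008 to 0.088. The cause of these shifts was not tested. The direction of the other 7 of the 8 genes was the same under all the alternatives run.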
